A study of Homo sapiens with 12 samples.

Results

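The beta-tubulin genes encode one of the 2 subunits of the tubulin dimer from which microtubules are built, and vincristine (VCR) binds that subunit. The members were the rows of the gene table named TUBB, TUBB1, TUBB2A, TUBB2B, TUBB3, TUBB4A, TUBB4B or TUBB6, which gave 8 of 60671 genes. Pseudogenes and other rows with TUBB in their names were left out of the 8 and are described with the related genes.

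RNA was sequenced from 12 libraries labelled Jurkat, a line established from human T-cell acute lymphoblastic leukemia, in 4 groups of 3 libraries. The groups crossed a construct with a treatment of 48 h. NC + DMSO and NC + VCR were the control groups. Their labels give the genotype WT, whereas the methods of the study describe control cells that carried the pHIV7/SFFV-GFP lentiviral vector. PTPN21 + DMSO and PTPN21 + VCR carried PTPN21, a non-receptor tyrosine phosphatase, with a FLAG tag under the SFFV promoter in the same vector backbone. DMSO was the solvent control in both constructs, and the VCR dose of these libraries was not given in the sources used here. The labels do not say whether the 3 libraries of a group came from separate cultures, so the p-values measure only the spread between these libraries.

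Microtubules grow and shrink by gaining and losing dimers of alpha- and beta-tubulin. VCR, a vinca alkaloid, blocks their assembly and with it the mitotic spindle. The beta-tubulin isotypes differ mainly in their acidic C-terminal tails and in the tissues that use them. Cells also adjust tubulin RNA to the pool of free dimers. The factor TTC5 recognises the first residues of a tubulin chain as it leaves the ribosome and brings the CCR4-NOT deadenylase to the RNA being translated.

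The targeted gene followed the labels. PTPN21 lay between 0.0212 and 0.569 FPKM in the 6 NC libraries and between 4.34 and 10.5 FPKM in the 6 PTPN21 libraries. FPKM counts fragments per kilobase of transcript, scaled to the mapped fragments of the library, so levels can be compared between genes. The cell type label was not borne out by its markers. Of 9 T lineage markers, 7 had a mean under 1 FPKM, CD28 and LCK were listed at 0 in all 12 libraries, and CD2 and CD3E did not exceed 0.0287 and 0.146 FPKM. CD3D stood apart from them at 61.8 to 139.7 FPKM. Conversely, 8 of 8 erythroid genes, chosen after the T lineage values had been seen, exceeded 1 FPKM in every library, and the fetal globin gene HBG1 lay between 187.8 and 709.1 FPKM. The sum of these erythroid levels, to which HBG2 added most in mean, also moved with the treatment. In NC it lay between 1312 and 2136 FPKM without VCR and between 904.4 and 945.1 FPKM with it. In PTPN21 it lay between 3097 and 4277 FPKM and between 1105 and 1284 FPKM. Not every gene fell. HBE1 averaged 31.9 FPKM without VCR and 39.7 FPKM with it, while the other erythroid genes had lower means with VCR. The part of the erythroid genes in the tubulin results was not tested. Of 4 B lineage markers 0, and of 4 myeloid markers 2, had a mean of at least 1 FPKM. The depth of the libraries was not in the table. An approximate estimate from the steps between low FPKM values put the NC libraries at up to 1.24 times, and the PTPN21 libraries at 1.43 to 1.66 times, the depth of the shallowest library. The libraries are called by construct and treatment below, and no cell type is drawn from the label.

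The decay signal read by TTC5 lies at the start of the coding sequence, which is why it is shown for each gene. Capitals mark bases unlike those of TUBB at positions 1 to 12, counted from the A of the start codon in the GENCODE 29 transcript.
TUBB: atgagggaaatc
TUBB4B: atgagggaaatc
TUBB2A: atgCgCgaGatc
TUBB2B: atgCgTgaGatc
TUBB6: atgagggaGatc
TUBB3: atgagggaGatc
TUBB1: atgCgTgaaatT
TUBB4A: atgCgggaGatc
TUBB and TUBB4B were identical over these bases, and the other members differed from TUBB at 1 to 3 of them. All 8 stretches encode the same 4 residues, in the genes that rose with VCR and in those that fell. RNA decay was not measured, and a part of TTC5 in these changes was not tested.

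In the NC + DMSO libraries the 8 genes spanned a wide range, and TUBB, the widely expressed class I isotype, was the highest at 319.3 ± 32.7 FPKM (SD, n = 3). TUBB4B, another widely expressed isotype, followed at 84.3 ± 7.20 FPKM, and TUBB6, the class V isotype, at 49.4 ± 3.08 FPKM. The class II isotypes TUBB2A and TUBB2B, abundant in brain, averaged 13.3 ± 1.84 and 8.68 ± 1.26 FPKM. The ranges of these 5 genes did not overlap. TUBB2A and TUBB2B share much of their sequence, so their order, here and with VCR, may depend on how shared fragments were assigned. TUBB1, the isotype of platelets and megakaryocytes, averaged 3.92 ± 1.26 FPKM, the brain isotype TUBB4A 2.44 ± 0.395 FPKM, and the neuronal isotype TUBB3 2.07 ± 0.349 FPKM. Among these last 3, each gene overlapped the next in order, so their order was not resolved.

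With VCR the order changed. In PTPN21 + VCR, TUBB remained first at 181.7 ± 4.02 FPKM, and TUBB2A came second at 61.5 ± 3.35 FPKM without overlapping the gene above or below it. TUBB6 at 47.4 ± 5.36 FPKM and TUBB2B at 45.7 ± 1.85 FPKM overlapped, followed by TUBB4B at 37.5 ± 1.64 FPKM. In NC + VCR, TUBB at 173.1 ± 11.7 FPKM overlapped TUBB6 at 139.6 ± 77.4 FPKM, and TUBB6 overlapped TUBB2A, because its 3 libraries were far apart.

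**Figure D1:**
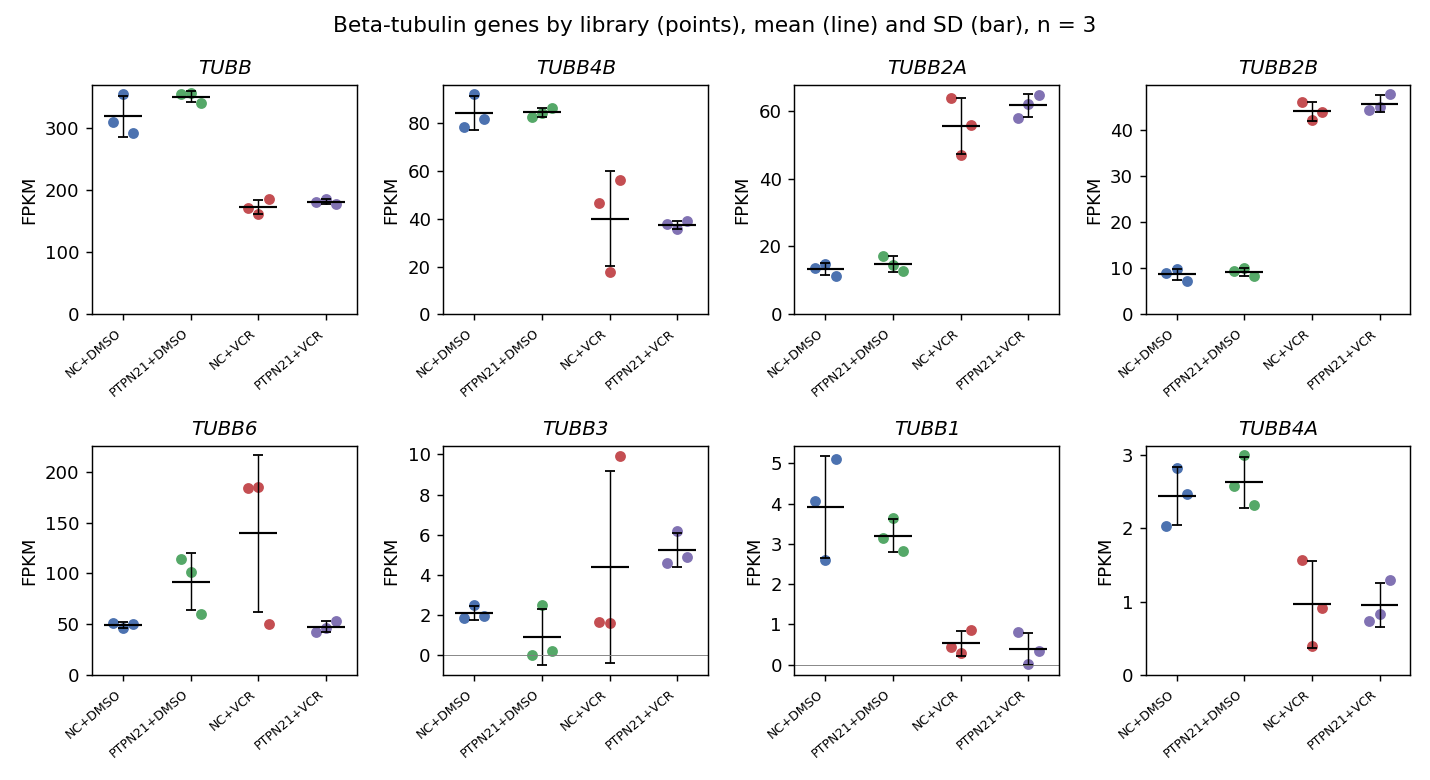
Level of each beta-tubulin gene in FPKM (vertical axis, linear, a separate scale for each gene) in the 4 groups, with 1 point per library, the mean as a horizontal line and the SD as a bar (n = 3; bars reach below 0 where the SD exceeds the mean). TUBB, TUBB4B, TUBB1 and TUBB4A sit lower in both VCR groups and TUBB2A and TUBB2B higher, whereas TUBB6 in NC + VCR has 2 libraries near 184 FPKM and 1 at 50.2 FPKM.

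The first comparison asked what VCR did to its target genes in each construct. The 4 groups were fitted in 1 model with limma on log2(FPKM + 1), which understates the change of low genes, and the Benjamini-Hochberg adjustment ran over the 11591 genes with a mean of at least 1 FPKM. All 8 members passed this filter, TUBB1 and TUBB4A largely through the DMSO libraries, since their VCR means were under 1 FPKM. With VCR in NC, 7 of 8 members passed the adjusted threshold of 0.05, 3 higher and 4 lower, against 36.2% of all genes tested, 7.91% higher and 28.3% lower. With VCR in PTPN21, 7 of 8 again passed, 3 higher and 4 lower, against 28.5% of all genes, 9.22% higher and 19.3% lower. The direction of the background depended on the scaling. In NC 917 genes were higher and 3275 lower as deposited, against 1717 and 1361 under median ratio scaling, and in PTPN21 1069 and 2239 against 1584 and 1449. Under that scaling 5 of 8 members were called in NC and 7 in PTPN21. The libraries of the groups did not overlap for 6 members in NC and 8 in PTPN21, compared with 44.1% and 50.4% of all genes. The median difference of all genes was -0.36 in NC and -0.17 in PTPN21 on the log2 scale, and the median of the 8 members was -0.20 and -0.90. The members lay on both sides of 0, and their median moved with TUBB6, at 1.26 in NC and an uncalled -0.90 in PTPN21. TUBB, TUBB1, TUBB2A, TUBB2B, TUBB4A and TUBB4B had similar differences in both constructs, so the medians do not show a stronger fall of the family in PTPN21. In bulk RNA, a change in the make-up of the cells and a change in RNA per cell cannot be told apart.

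TUBB (chr6:30720201-30725426, plus strand, GENCODE 29 on GRCh38) fell with VCR. Its NC + DMSO libraries held 309.5, 355.8 and 292.7 FPKM and its NC + VCR libraries 172.0, 161.9 and 185.3 FPKM. The PTPN21 + DMSO libraries held 354.9, 357.4 and 340.7 FPKM and the PTPN21 + VCR libraries 180.7, 186.1 and 178.2 FPKM. All 6 VCR libraries were below all 6 DMSO libraries. The log2 difference was -0.88 ± 0.098 (SE, adjusted p = 6.61e-05, limma) in NC and -0.95 ± 0.098 (adjusted p = 3.79e-05) in PTPN21, or 1.84-fold and 1.93-fold lower on the log2(FPKM + 1) scale. Scaling the libraries to their median ratio brought the median of all genes to -0.04 in NC, and TUBB then fell by 0.49 (adjusted p = 0.0119). The antisense gene AL662797.1, which overlaps TUBB, held 182.9 FPKM in NC + DMSO replicate 3 and at most 7.93 FPKM in each other library. Whether the counting used strand was not given in the sources used here.

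TUBB4B (chr9:137241213-137243707, plus strand) fell as well. Its levels were 78.5, 92.3 and 81.9 FPKM in NC + DMSO and 46.5, 17.6 and 56.2 FPKM in NC + VCR, where the second library was far below the others. In PTPN21 + DMSO they were 82.8, 84.5 and 86.6 FPKM, and in PTPN21 + VCR 37.7, 35.8 and 39.1 FPKM. The ranges of the VCR and DMSO libraries were separate in both constructs. The log2 difference was -1.20 ± 0.305 (adjusted p = 0.00983, limma) in NC and -1.15 ± 0.305 (adjusted p = 0.0148) in PTPN21. Without NC + VCR replicate 2 the difference in NC was -0.71 (adjusted p = 0.00228), and under median ratio scaling of all libraries it was -0.82 and no longer passed (adjusted p = 0.0617).

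TUBB2A (chr6:3153669-3157526, minus strand) and TUBB2B (chr6:3224261-3231730, minus strand) rose. TUBB2A held 13.6, 14.95 and 11.3 FPKM in NC + DMSO and 63.7, 47.1 and 55.7 FPKM in NC + VCR. In PTPN21 it held 17.2, 14.4 and 12.6 FPKM with DMSO and 58.0, 62.04 and 64.6 FPKM with VCR. Every VCR library was above every DMSO library by a wide margin. The log2 difference was 1.98 ± 0.159 (adjusted p = 6.11e-06, limma) in NC and 1.999 ± 0.159 (adjusted p = 5.10e-06) in PTPN21, a rise of 3.95-fold and 3.997-fold on this scale.

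For TUBB2B the NC libraries held 8.97, 9.78 and 7.31 FPKM with DMSO and 46.2, 42.2 and 43.9 FPKM with VCR. The PTPN21 libraries held 9.31, 9.99 and 8.24 FPKM with DMSO and 44.3, 45.03 and 47.8 FPKM with VCR. The separation was again complete. The log2 difference was 2.23 ± 0.138 (adjusted p = 1.10e-06, limma) in NC and 2.20 ± 0.138 (adjusted p = 1.27e-06) in PTPN21, and by size TUBB2B ranked 59 and 54 from the top among the 11591 genes, with TUBB2A at 84 and 77.

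**Figure D2:**
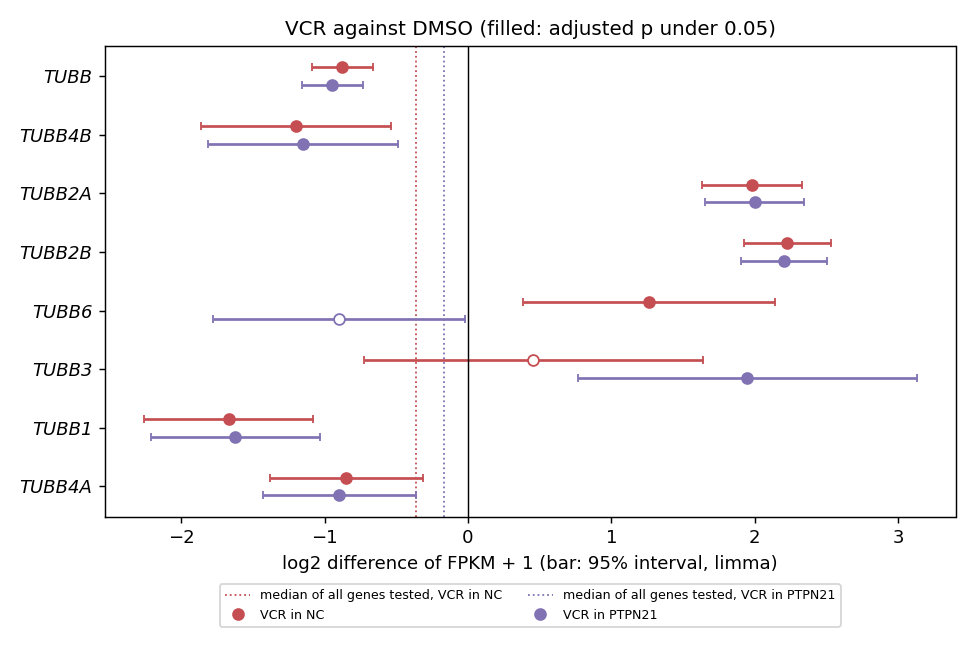
Difference between VCR and DMSO on the log2(FPKM + 1) scale (horizontal axis) for each gene, in NC (red) and PTPN21 (purple), with 95% intervals from limma; filled points passed an adjusted p of 0.05 and dotted lines mark the median of all genes tested. TUBB2A lies at 1.98 and 1.999 and TUBB2B at 2.23 and 2.20, and TUBB, TUBB4B, TUBB1 and TUBB4A lie below the medians of -0.36 and -0.17 in both constructs.

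The levels of TUBB2A and TUBB2B cannot be treated as separate measurements, because the sequences are nearly the same. Their coding sequences of 1338 bases differed at 25 bases (98.1% identical), and 23 of the 25 changed codons encode the same residue. One stretch of 725 bases, from position 610 to 1334, was identical. The end of the coding sequence, positions 1276 to 1338, is shown because it encodes the C-terminal tail by which isotypes are usually told apart. Capitals mark the bases that differ between the pair.
TUBB2A: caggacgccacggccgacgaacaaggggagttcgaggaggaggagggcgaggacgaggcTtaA
TUBB2B: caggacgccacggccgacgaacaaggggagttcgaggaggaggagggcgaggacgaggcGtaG
The tails differed at 2 of 63 bases. Of the windows of 50 bases in the TUBB2A transcript, 65.5% also occurred in a transcript of another gene, most of them in TUBB2B, and of those in TUBB2B 52.2% did. With windows of 100 bases the shares were 56.4% and 46.2%. How the authors assigned fragments that match both genes was not given in the sources used here. The ratio of TUBB2A to TUBB2B was 1.53 ± 0.0167 in NC + DMSO and 1.25 ± 0.133 in NC + VCR. On the log2 scale, the sum of TUBB2A, TUBB2B and the pseudogene TUBB2BP1 rose by 2.13 in NC (adjusted p = 1.27e-06, limma). In PTPN21 it rose by 2.12 (adjusted p = 1.41e-06). The rise was thus also present in the sum of these 3 rows. How the split of shared fragments bears on it was not tested, because FPKM depends on transcript length, 1595 bases for TUBB2A and 2020 for TUBB2B.

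**Figure D3:**
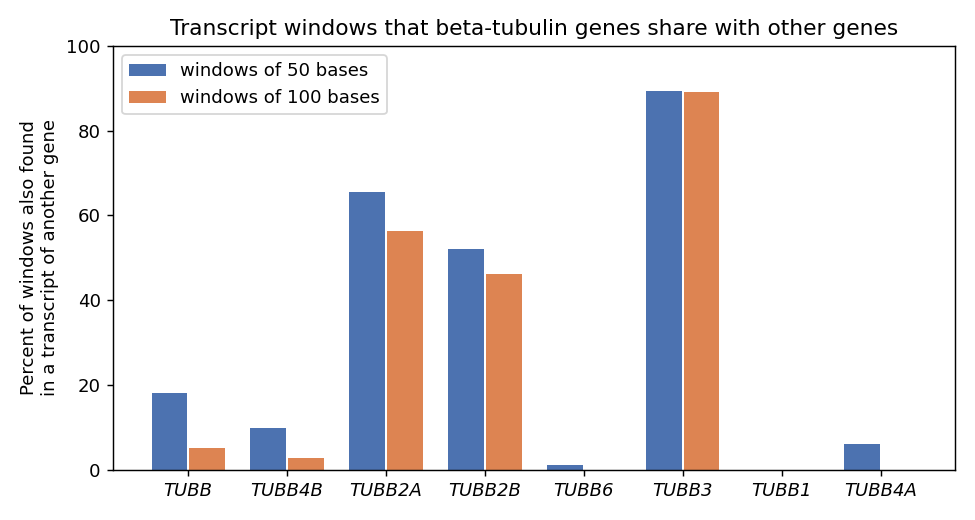
Percent of windows of 50 bases (blue) and 100 bases (orange) of each gene's transcript that also occur in a GENCODE 29 transcript of another gene. TUBB3 (89.4% at 50 bases), TUBB2A (65.5%) and TUBB2B (52.2%) share most of their windows, whereas TUBB6 shares 0.993% and TUBB1 none.

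As TUBB2A and TUBB2B moved together, the 120 bases before the first base of each promoter record's transcript are given from RefSeq (GRCh38.p14, both on the minus strand), with TATAAA in capitals. The records lie at chr6:3157545-3157664 for TUBB2A and chr6:3227654-3227773 for TUBB2B.
TUBB2A: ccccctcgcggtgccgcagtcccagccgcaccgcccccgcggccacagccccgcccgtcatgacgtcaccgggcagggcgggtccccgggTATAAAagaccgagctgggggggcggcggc
TUBB2B: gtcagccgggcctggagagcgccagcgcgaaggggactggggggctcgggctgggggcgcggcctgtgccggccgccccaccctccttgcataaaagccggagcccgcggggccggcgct
On either strand, TATAAA occurred in 11.5% of all 35116 promoter windows of 300 bases. This exact string occurred 30 bases before the start in TUBB2A and in no other member's window. Near matches were not counted, such as cataaaag in the printed bases of TUBB2B, close to the same place. The motif CCAAT, present in 34.6% of all windows, occurred in that of TUBB2B and not in that of TUBB2A. In TUBB2B it lay at position -178, outside the 120 bases printed. It also occurred in windows of TUBB, TUBB3, TUBB4A, TUBB4B and TUBB6, and not in that of TUBB1.

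TUBB1 (chr20:59019254-59026654, plus strand) and TUBB4A (chr19:6494319-6502848, minus strand) were low and fell with VCR. TUBB1 held 4.06, 2.59 and 5.10 FPKM in NC + DMSO and 0.442, 0.281 and 0.863 FPKM in NC + VCR. In PTPN21 it held 3.14, 3.63 and 2.83 FPKM with DMSO and 0.810, 0.0314 and 0.349 FPKM with VCR. No VCR library reached the lowest DMSO library. The log2 difference was -1.67 ± 0.272 (adjusted p = 7.78e-04, limma) in NC and -1.62 ± 0.272 (adjusted p = 0.00110) in PTPN21. With a pseudocount of 0.1 in place of 1 it was -2.73 (adjusted p = 0.00661) and -3.12 (adjusted p = 0.00389). No window of TUBB1 was shared with another gene. The megakaryocyte and platelet list, of which 1 of 4 genes (ITGA2B) had a mean of at least 1 FPKM, also fell in sum, from 9.35 to 11.96 FPKM in NC + DMSO to 5.42 to 6.39 FPKM in NC + VCR, and from 7.95 to 10.4 FPKM to 3.33 to 4.50 FPKM in PTPN21. Its defining platelet genes PF4 and GP9 were listed at 0 in all 12 libraries.

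TUBB4A held 2.03, 2.82 and 2.47 FPKM in NC + DMSO and 1.57, 0.395 and 0.919 FPKM in NC + VCR. In PTPN21 its levels were 2.57, 2.99 and 2.31 FPKM with DMSO and 0.739, 0.830 and 1.30 FPKM with VCR. The groups were separate in both constructs, but the gap in NC was small. The log2 difference was -0.85 ± 0.246 (adjusted p = 0.0191, limma) in NC and -0.90 ± 0.246 (adjusted p = 0.0178) in PTPN21. With a pseudocount of 0.1 it was -1.41 (adjusted p = 0.0273) and -1.40 (adjusted p = 0.0348). In NC it did not pass under median ratio scaling (adjusted p = 0.0877), nor without NC + DMSO replicate 2 (adjusted p = 0.0557) or NC + VCR replicate 2 (adjusted p = 0.0664). In PTPN21 it did not pass without PTPN21 + DMSO replicate 2 (adjusted p = 0.0634), PTPN21 + VCR replicate 1 (adjusted p = 0.0642) or PTPN21 + VCR replicate 2 (adjusted p = 0.0578).

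TUBB3 (chr16:89921392-89938761, plus strand) passed the threshold with VCR in PTPN21, and shares most of its sequence with an overlapping gene model. Its levels were 1.81, 2.47 and 1.93 FPKM in NC + DMSO and 1.63, 1.57 and 9.92 FPKM in NC + VCR, where the third library stood apart. In PTPN21 + DMSO it was listed at 0, 2.47 and 0.186 FPKM, and in PTPN21 + VCR it held 4.59, 6.20 and 4.87 FPKM. Of 4 neuronal markers 1 (SYP) had a mean of at least 1 FPKM, the list summed to 1.03 to 2.13 FPKM without VCR and 2.33 to 3.68 FPKM with it, and STMN2 was listed at 0 in all 12. The log2 difference of TUBB3 was 0.46 ± 0.544 (adjusted p = 0.531, limma) in NC and 1.95 ± 0.544 (adjusted p = 0.0191) in PTPN21, where a pseudocount of 0.1 gave 3.65 (adjusted p = 0.0170). Without NC + VCR replicate 3 the difference in NC was -0.23 (adjusted p = 0.700). In PTPN21 the adjusted p was 0.0786 without PTPN21 + DMSO replicate 1, 0.0703 without PTPN21 + DMSO replicate 3 and 0.0625 without PTPN21 + VCR replicate 2. AC092143.1, a gene model on the same strand (chr16:89919165-89936092) that overlaps TUBB3, held 89.4% of the 50-base windows of TUBB3. It was at 1.73 and 1.80 FPKM in PTPN21 + DMSO replicates 1 and 3, the libraries where TUBB3 was at or near 0, at 0.111 FPKM in NC + DMSO replicate 2, and listed at 0 in the other 9. The sum of both rows was 1.73, 2.47 and 1.98 FPKM in PTPN21 + DMSO, still below all 3 PTPN21 + VCR libraries, and the log2 difference of the sum was 1.02 and did not pass (adjusted p = 0.105). How fragments were divided between these rows was not tested.

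TUBB6 (chr18:12307669-12344320, plus strand) had the largest SD of the 8 genes, 77.4 FPKM in NC + VCR. It held 51.7, 45.9 and 50.6 FPKM in NC + DMSO and 183.8, 184.8 and 50.2 FPKM in NC + VCR. In PTPN21 it held 114.6, 101.0 and 60.6 FPKM with DMSO and 42.8, 46.2 and 53.3 FPKM with VCR. NC + VCR replicate 3 lay within the range of NC + DMSO, while the other 2 NC + VCR libraries were above all other libraries. With VCR the log2 difference was 1.26 ± 0.403 (adjusted p = 0.0291, limma) in NC and -0.90 ± 0.403 (adjusted p = 0.118) in PTPN21. Without NC + VCR replicate 3, singled out by its TUBB6 level, these were 1.88 (adjusted p = 2.23e-04) and -0.90 (adjusted p = 0.00710). The difference in PTPN21 does not use that library and kept its size, but its p-value rests on a spread shared over all 4 groups. The call in NC was lost when any one of the NC + DMSO libraries, NC + VCR replicate 1 or NC + VCR replicate 2 was left out, with adjusted p from 0.0585 to 0.110. NC + VCR replicate 3, the lowest of its group for TUBB6, was also the highest of the 12 for TUBB3, and its PTPN21 level of 0.372 FPKM lay within the NC range.

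The beta-tubulin RNA as a whole changed in its make-up. TUBB made up 66.0% ± 1.503 of the summed FPKM of the 8 genes in NC + DMSO and 63% ± 2.91 in PTPN21 + DMSO (SD, n = 3), but 38.3% ± 6.76 in NC + VCR and 47.8% ± 1.76 in PTPN21 + VCR. TUBB2A and TUBB2B together made up 4.53% ± 0.372 and 4.28% ± 0.239 with DMSO and 21.9% ± 2.61 and 28.2% ± 0.608 with VCR. These shares are given as descriptions, with no test of their own. TUBB6 made up 35.6% and 40.5% in NC + VCR replicates 1 and 2 and 12.5% in replicate 3, within 11.6% to 13.7% in PTPN21 + VCR. The summed level in the NC groups was 483.4 ± 38.5 FPKM without and 458.3 ± 56.4 FPKM with VCR, and in the PTPN21 groups 558.3 ± 38.5 and 380.5 ± 10.1 FPKM. The sum thus overlapped between the NC groups and was separate between the PTPN21 groups.

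**Figure D4:**
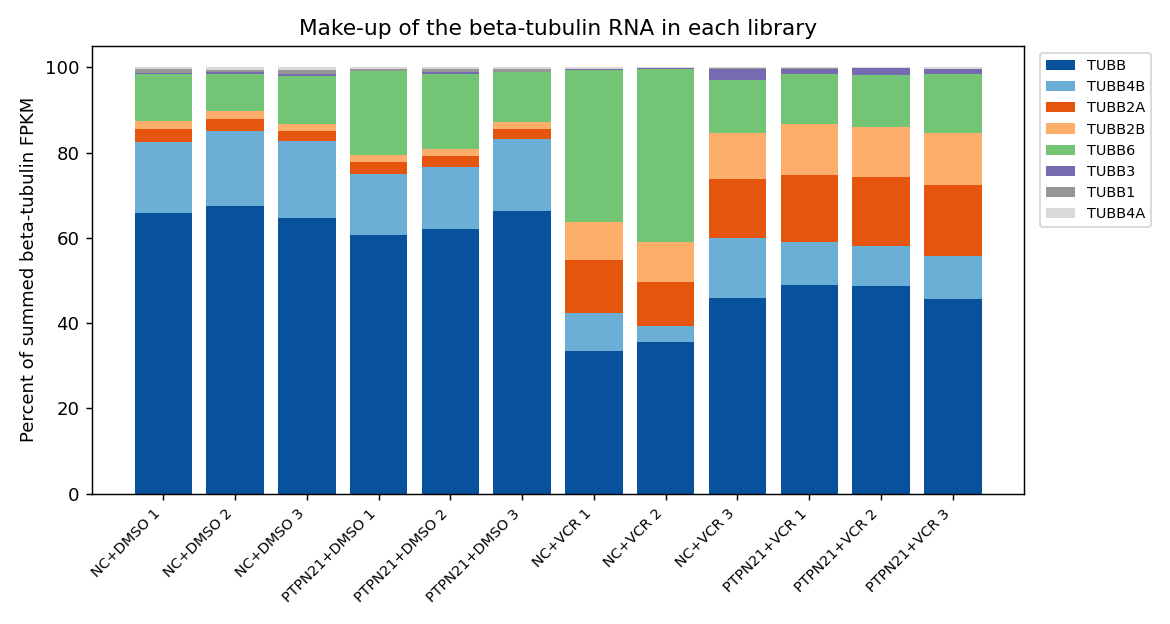
Share of each gene in the summed beta-tubulin FPKM (vertical axis, percent) in each of the 12 libraries (bars, by group and replicate). TUBB (dark blue) makes up 60.7% to 67.6% without VCR and 33.3% to 48.9% with it, and TUBB2A with TUBB2B (orange shades) 4.06% to 4.799% and 19.6% to 28.9%.

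The second comparison asked whether PTPN21 changed the target genes. With DMSO, 0 of 8 members passed and 0 had an unadjusted p under 0.05 by limma, against 6.34% of all genes called, and TUBB6 was the 1 member whose groups did not overlap, against 33.4% of all genes. With VCR, 0 of 8 passed, against 1.82% of all genes, 0 were free of overlap, against 22.5%, and TUBB6 alone had an unadjusted p under 0.05. The interaction, the difference between the VCR effects in both constructs, passed for 0 of 8 members, against 0.129% of all genes, and again TUBB6 alone had an unadjusted p under 0.05. These shares of all genes were themselves unstable. For PTPN21 with DMSO, 735 genes were called with all libraries, 54 once PTPN21 + DMSO replicate 1 was dropped and 1347 once NC + DMSO replicate 2 was, the lowest and highest counts with 1 library left out. For PTPN21 with VCR the 211 calls became 43 on dropping PTPN21 + VCR replicate 2 and 357 on dropping NC + DMSO replicate 3. The 15 interaction calls became 7 on dropping NC + DMSO replicate 1 and 30 on dropping NC + DMSO replicate 2. These comparisons share libraries with the VCR comparisons above.

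For TUBB the PTPN21 difference was 0.14 with DMSO (95% interval -0.07 to 0.35) and 0.07 with VCR (-0.14 to 0.28) on the log2 scale. For TUBB2B it was 0.08 (-0.22 to 0.38) and 0.05 (-0.25 to 0.35), and for TUBB2A 0.14 (-0.21 to 0.48) and 0.16 (-0.19 to 0.50). All 6 of these intervals lay between -0.25 and 0.50. TUBB4B had wider intervals, from -0.65 to 0.67 with DMSO and -0.61 to 0.72 with VCR, as did TUBB1, TUBB4A and TUBB3. The model uses 1 spread per gene for all 4 groups, so an interval with DMSO also carries the spread of the VCR libraries. For TUBB4B that spread includes NC + VCR replicate 2 at 17.6 FPKM, while the SD was 7.20 FPKM in NC + DMSO and 1.94 FPKM in PTPN21 + DMSO. For TUBB3 the difference was -0.93 with DMSO (-2.12 to 0.25) and -0.02 when AC092143.1 was added (adjusted p = 0.983, limma).

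TUBB6 was 0.84 ± 0.403 higher in PTPN21 with DMSO (adjusted p = 0.215, limma) and 1.32 lower in PTPN21 with VCR (log2 difference -1.32 ± 0.403, adjusted p = 0.114). The interaction was -2.16 ± 0.570 (unadjusted p = 0.00253, adjusted p = 0.169). Leaving out NC + VCR replicate 3 gave 0.84 with DMSO (adjusted p = 0.0402), -1.94 with VCR (adjusted p = 0.00340) and -2.78 for the interaction (adjusted p = 0.00431). The difference with DMSO does not use that library and kept its size. Its adjusted p changed because the model shares 1 spread per gene over all 4 groups. Thus 1 library decided whether TUBB6 was called in these comparisons. That library stood out by its TUBB6 level, so the p-values without it are descriptions.

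**Figure D5:**
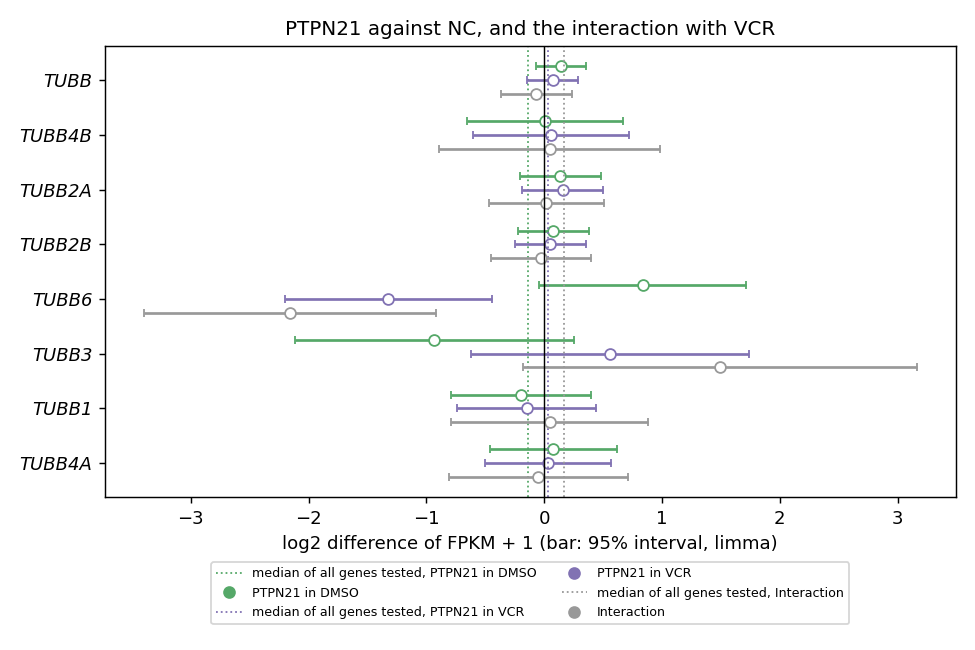
Difference between PTPN21 and NC with DMSO (green) and with VCR (purple), and the interaction (grey), on the log2(FPKM + 1) scale with 95% intervals from limma; open points did not pass an adjusted p of 0.05 and dotted lines mark the medians of all genes tested. All points are open, and TUBB6 lies farthest from 0 at -1.32 with VCR and -2.16 for the interaction.

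Over the 12 libraries, the members fell into sets by their log2 levels, a description that mostly reflects the 4 groups the libraries share. TUBB2A and TUBB2B, whose levels are not separate measurements, had a Pearson correlation of 0.994. The part of their shared sequence in this value was not tested. TUBB correlated with TUBB4A at 0.907, TUBB1 at 0.904 and TUBB4B at 0.885, and with TUBB2B at -0.962. TUBB6 correlated with TUBB at -0.16 and with TUBB2B at 0.13. Among the genes tested, those with the pattern most like TUBB were the mitochondrial gene MT-CYB (0.991) and the histone genes H2AC19 and H2AC18 (both 0.990). Those most like TUBB6 were NECAB3 (0.872), AC133550.3 (0.869) and CHMP4A (0.864).

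The genes of alpha-tubulin, the other subunit of the dimer, were the next list. The counts of this and the following lists stand beside 7.91% of all genes higher and 28.3% lower with VCR in NC, and 9.22% higher and 19.3% lower in PTPN21. Of 9 alpha-tubulin genes 5 were tested, and with VCR 3 fell in NC and 1 in PTPN21. TUBA1B, a major alpha-tubulin, fell in both, with log2 differences of -1.16 in NC (adjusted p = 0.0118, limma) and -1.41 in PTPN21 (adjusted p = 0.00502), and TUBAL3 fell in NC at -0.79 (adjusted p = 0.0469) and was at -0.43 in PTPN21 (adjusted p = 0.290). Of the gamma-, delta- and epsilon-tubulins 3 of 4 were tested and 1 fell in NC, TUBD1 at -1.24 (adjusted p = 0.0110), with 0.44 in PTPN21 (adjusted p = 0.342). TUBG1, which nucleates microtubules at centrosomes, was at -0.10 (adjusted p = 0.674) and 0.32 (adjusted p = 0.180). Among 35 other rows with TUBB in their names only the pseudogene TUBB2BP1 was tested. It rose by 1.05 in NC (adjusted p = 0.00258) and by 1.10 in PTPN21 (adjusted p = 0.00226). Its mean went from 0.737 to 2.58 FPKM in NC, and from 0.550 to 2.32 FPKM in PTPN21. TUBB2BP1 thus passed the filter of 1 FPKM only through its treated libraries. A row let in this way tends to show a rise, so its call is not separate evidence.

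Tubulin dimers are folded by prefoldin, the CCT chaperonin and the tubulin cofactors. Of 21 folding factor rows tested, 4 rose and 5 fell with VCR in NC, and 4 rose and 4 fell in PTPN21, while 36.2% and 28.5% of all genes were called in either direction. PFDN2, a prefoldin subunit, rose by 1.13 in NC (adjusted p = 1.32e-05, limma) and by 0.65 in PTPN21 (adjusted p = 6.91e-04). CCT7, a chaperonin subunit, fell in both, at -0.64 (adjusted p = 2.39e-04) and -0.57 (adjusted p = 5.69e-04).

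In the list of tubulin RNA decay genes, TTC5 and the CCR4-NOT subunits among them, 0 of 11 rose and 6 fell with VCR in NC, beside 28.3% of all genes lower, and 1 rose and 0 fell in PTPN21, beside 19.3% lower. The interaction passed for 0 of the 11, so a difference between the constructs was not shown. TTC5 averaged 4.11 ± 0.334 FPKM in NC + DMSO and 1.21 ± 0.966 in NC + VCR, a log2 difference of -1.30 (adjusted p = 0.00581, limma). In PTPN21 it averaged 2.84 ± 1.12 and 1.95 ± 0.402 FPKM, a difference of -0.35 (adjusted p = 0.414). The interaction for TTC5 was 0.95 and did not pass (adjusted p = 0.343). CNOT2, a CCR4-NOT subunit, fell by 1.12 in NC (adjusted p = 0.00577) and was at 0.08 in PTPN21 (adjusted p = 0.839). The 1 that rose in PTPN21 was the deadenylase gene CNOT6, at 1.37 (adjusted p = 0.00702), named after its value was seen. CNOT2 and CNOT6 were also the 2 genes of this list that were lower in PTPN21 than in NC with DMSO. Those differences were -1.31 (adjusted p = 0.0192, limma) and -2.14 (adjusted p = 0.00679), against -0.11 (adjusted p = 0.880) and -0.19 (adjusted p = 0.815) with VCR. Their VCR differences in the 2 constructs thus start from unlike DMSO levels.

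Of 13 microtubule dynamics genes, 2 rose and 3 fell with VCR in NC and 4 rose and 2 fell in PTPN21, again beside 36.2% and 28.5% of all genes in either direction. MAPRE1, which encodes the plus-end protein EB1, rose by 0.78 (adjusted p = 0.00157, limma) and by 1.09 (adjusted p = 2.12e-04), and STMN3, a stathmin-family gene, fell in both, at -1.34 (adjusted p = 0.00724) and -1.23 (adjusted p = 0.0137). Of 9 tested genes for enzymes that modify tubulin tails, 0 rose and 6 fell in NC and 0 rose and 3 fell in PTPN21. The list's median difference was -1.28 in NC and -0.31 in PTPN21, beside -0.36 and -0.17 for all genes. SVBP, the partner of the vasohibin detyrosinases, fell in both, at -1.31 (adjusted p = 9.68e-06) and -1.26 (adjusted p = 1.17e-05), and AGBL5, a deglutamylase, likewise, at -1.96 (adjusted p = 6.24e-05) and -1.30 (adjusted p = 0.00106). In PTPN21 against NC, 0 genes of these lists passed with VCR, and with DMSO 1 folding factor rose while 2 decay genes, 4 dynamics genes and 1 tail enzyme fell, beside 6.34% of all genes called in either direction, a share that moved widely when 1 library was left out.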

How the data were processed

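The authors deposited 1 table of FPKM values for 60671 genes in 12 libraries. Per the labels, total RNA was extracted with Trizol, and the submitters' processing notes name fastp, Bowtie2 and the mouse build mm10, although the rows carry human Ensembl identifiers. The program that made the FPKM values, its annotation and its treatment of fragments that match several genes were not given in the sources used here. No counts were used, and depth was read only from steps in low values.

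Values were taken as log2(FPKM + 1), genes with a mean under 1 FPKM were dropped, and 11591 were fitted over 4 groups with limma 3.58.1 (trend, R 4.3.3), with Benjamini-Hochberg adjustment over all of them. The fit was tested on simulated data for VCR in NC, with 200 of 11591 genes changed. It recovered 84% of changes of 2 and 37% of changes of 1 on the log2 scale. Genes of low level were raised in the simulation, and the real comparison had 4192 calls. These shares therefore do not carry over to low genes or to the real fit. Comparisons were VCR in each construct, PTPN21 in each treatment, and their interaction. Groups came from the labels. Replicate numbers were not used to pair libraries. All 8 members are described in every library. From each other list, the genes with the lowest adjusted p in VCR in NC, at most 2, are named, with TTC5. For the 2 members of highest mean, the 3 genes of most like pattern are named. The members and lists were chosen with earlier results of these data known. Coordinates and coding sequences came from GENCODE 29 (GRCh38) and promoters from RefSeq (GRCh38.p14), all 8 genes matching in both. Alternatives were the pseudocount, the filter, 2 other scalings, limma without the trend or with robust estimation, a replicate block, fits of only the groups compared, each library left out, and summed near-identical rows.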

Additional observations from a re-analysis of the deposited data

Results flagged for a closer look

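The response of TUBB6 to VCR went in opposite directions in the constructs, a log2 interaction of -2.16. In a test of that difference the unadjusted p was 0.00253 and the adjusted p 0.169 (limma), so it did not pass over all genes. NC + VCR replicate 3, at 50.2 FPKM beside 183.8 and 184.8 FPKM in the other 2 libraries of its group, is the library on which the call turned. Without it the interaction was -2.78 (adjusted p = 0.00431, limma). It was singled out by its TUBB6 level, so that p-value is a description and not a fair test. This was the only 1 of 12 such omissions that gave a call, and the adjusted p of the others reached 0.354.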

How the results depend on the processing

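TUBB, TUBB1, TUBB2A and TUBB2B kept their direction and passed the threshold with VCR in both constructs under every alternative in which they were tested, each library left out included. With a mean of at least 5 FPKM required, 5 of the 8 genes were tested and 4 were called with VCR in PTPN21, fewer because fewer were tested. With only the groups compared, 4 of 8 were called with VCR in NC, since TUBB4A (adjusted p = 0.0762), TUBB4B (0.0530) and TUBB6 (0.0781) no longer passed, the cause of which was not tested, and TUBB6 passed with VCR in PTPN21 (0.0203). Leaving out 1 library at a time gave 5 to 7 calls with VCR in NC, 5 to 8 with VCR in PTPN21, and 0 to 1 for PTPN21 in DMSO, for PTPN21 in VCR and for the interaction, the 1 being TUBB6 without NC + VCR replicate 3. Without any filter TUBB6 in NC did not pass (adjusted p = 0.0755), and the cause was not tested. Differences that changed sign were uncalled in both settings. TPM scaling turned PTPN21 in DMSO to -0.0075 for TUBB, -4.92e-04 for TUBB2A, -0.058 for TUBB2B, -0.030 for TUBB4A and -0.14 for TUBB4B, PTPN21 in VCR to -0.0084 for TUBB2B, and the interaction to 0.019 for TUBB, 0.050 for TUBB2B and 0.043 for TUBB4A. Median ratio scaling turned the interaction to -0.11 for TUBB1, -0.16 for TUBB2A and -0.15 for TUBB4B, a pseudocount of 0.1 turned it to -0.39 for TUBB1 and 0.018 for TUBB4A, and the TUBB2A, TUBB2B and TUBB2BP1 sum gave -0.0012. With 1 library left out, TUBB3 with VCR in NC ran from -0.23 to 0.81. PTPN21 in DMSO ran from -0.0095 to 0.16 for TUBB4A, -0.039 to 0.076 for TUBB4B and -0.029 to 0.16 for TUBB2B. PTPN21 in VCR ran from -0.19 to 0.25 for TUBB4A, -0.44 to 0.37 for TUBB4B and -0.36 to 0.050 for TUBB1. The interaction ran from -0.094 to 0.13 for TUBB2A, -0.27 to 0.17 for TUBB4A, -0.45 to 0.36 for TUBB4B, -0.16 to 0.26 for TUBB1 and -0.11 to 0.080 for TUBB2B. The replicate block gave the same 7 calls with VCR in NC and 7 in PTPN21 and 0 in the other comparisons. Same-numbered libraries did not deviate together (18 pairs, correlations from -0.15 to 0.06, 0 above 0.1). A small shared effect could be missed this way, and the labels do not say what a replicate number shares. Both summed-row alternatives were chosen after seeing the data. Levels near or under 1 FPKM, as of TUBB1, TUBB4A and TUBB3, rest on few fragments. The simulated data do not describe genes this low, because such genes were raised in them. At the simulated levels, changes of 1 on the log2 scale were often missed.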
